A study of Homo sapiens with 2 samples.

Results

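The genes examined were CRTC1, CRTC2 and CRTC3, which encode the CREB-regulated transcription coactivators, CREB1, CREM and ATF1, which encode the DNA-binding factors those coactivators join, and CREBBP and EP300, which encode the acetyltransferases CBP and p300. These 8 of the 20033 protein-coding genes annotated by GENCODE were examined for open chromatin in CAMA-1, an established luminal breast cancer cell line. ATAC-seq, in which the Tn5 transposase cuts and tags accessible DNA, had been run on 2 biological replicates of 50000 cells each, and these form a single condition. CRTC2 was chosen from these same data, because its transcription start site (TSS) peak is among the 5 strongest of all protein-coding genes, and the other members were taken as its family and partners. Values for CRTC2 and its contrast with the paralogs are therefore descriptions without a test. The replicates show the spread between preparations of 1 cell line and not between tumors.

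The CREB factors bind the cAMP response element (CRE), whose full form is TGACGTCA. When cAMP rises, protein kinase A phosphorylates CREB, and the phosphorylated factor recruits CBP and p300, which acetylate histones and other proteins. The CRTC proteins are held in the cytoplasm by 14-3-3 proteins after phosphorylation by salt-inducible kinases, and calcineurin releases them to the nucleus, where they bind the basic leucine zipper of CREB. CRTC2 is best known from gluconeogenesis in the liver, and CRTC1 from neurons and from gene fusions in salivary gland tumors.

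Peaks were assigned to a gene where they overlapped its body or the 20 kb on either side, and a TSS peak lay within 1 kb of any annotated TSS of the gene. This gave 191 of 245736 peaks in replicate 1 and 193 of 259745 peaks in replicate 2. Fold enrichment is the number of stacked reads at the highest point of a peak divided by the background, with 1 added to each, where the background was the same for all peaks of a replicate (3.35 and 3.52 stacked reads), and it is the scale of all values below unless a height in stacked reads is named. The median fold enrichment of the peaks over the 8 genes was 6.90 in replicate 1 and 6.85 in replicate 2, against 8.28 and 7.96 for all peaks. Of the peaks over the 8 genes, 162 (84.8%) in replicate 1 and 156 (80.8%) in replicate 2 overlapped a peak of the other replicate, against 90.2% and 84.7% of all peaks. The 29 and 37 peaks that were not found again all had low values, at most 5.98 and 5.97. The luminal markers were open at a TSS in both replicates for 7 of 7 genes (EPCAM, KRT8, KRT18, KRT19, ESR1, GATA3 and FOXA1), with fold enrichments from 31.3 at ESR1 to 146.6 at KRT8, where 79.3% of all protein-coding genes were open. Among markers of other lineages, 3 of 8 were open (CD14, COL1A1 and SOX10, with fold enrichments from 12.9 to 73.4), and no TSS peak was listed for PTPRC, CD3E, PECAM1, MYOD1 or ALB. The lists hold only peaks above a threshold, so a TSS without a peak was not detectable at this depth.

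All 8 members had a TSS peak in both replicates, as did 79.3% of protein-coding genes. Their levels nevertheless covered more than an order of magnitude, with CRTC2 at the top and its paralogs at the bottom. CRTC2 was followed by CREB1, then by ATF1 and CREM, then by EP300 and CREBBP, and CRTC1 and CRTC3 lay below the median of all genes with a TSS peak, which was 51.1 in replicate 1 and 52.6 in replicate 2. Because the cells were measured in bulk, a promoter open in more cells and one open more often in each cell cannot be told apart.

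**Figure D1:**
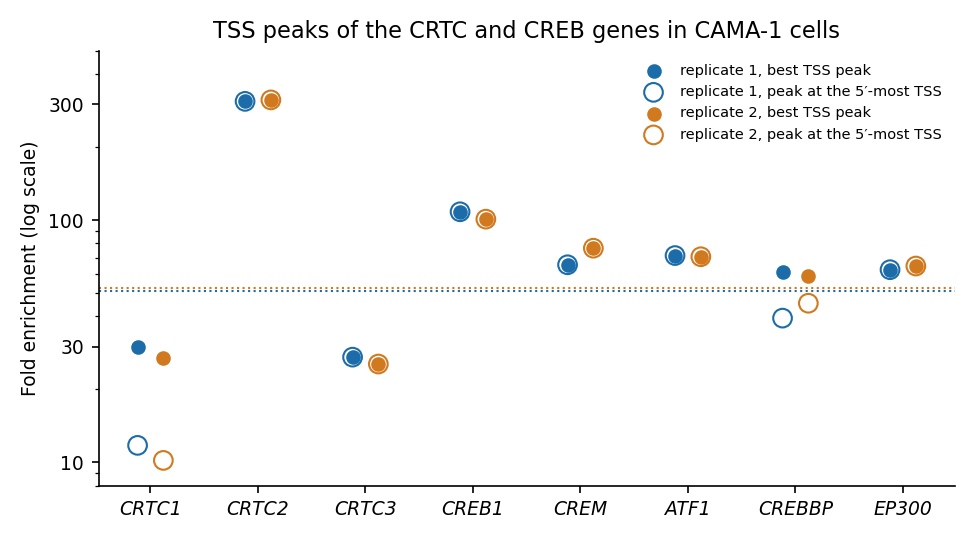
Fold enrichment (log axis) of TSS peaks for each gene, with replicate 1 in blue and replicate 2 in orange. Filled points are the best TSS peak and open circles the peak at the 5′-most TSS. Dotted lines are the median of all protein-coding genes with a TSS peak. CRTC2 stands at 309 and 313, CRTC1 and CRTC3 lie below 30, and for CRTC1 and CREBBP the best peak is not the one at the 5′ end.

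CRTC2 (ENSG00000160741.17, chr1:153947669-153958615, reverse strand) is the shortest of the 8 genes, at 10.9 kb. Its TSS peak had a fold enrichment of 309 in replicate 1 and 313 in replicate 2, with heights of 1342 stacked reads (95% exact Poisson interval 1271 to 1416) and 1416 (1343 to 1492). These intervals cover counting error only, and reads from PCR are not independent molecules. The intervals of the replicates overlapped. The peak spanned chr1:153957382-153961025 in replicate 1 and chr1:153957665-153960955 in replicate 2, so that it was 3644 and 3291 bp wide, broader than 98.1% and 97.5% of the best TSS peaks of protein-coding genes. It covered the MANE TSS at 153958612 and 5 further annotated TSSs of CRTC2, and it held no TSS of any other gene. Of all 20033 genes, CRTC2 ranked 4 in replicate 1 and 3 in replicate 2. EDEM3, a mannosidase of the endoplasmic reticulum, stood directly above it by mean rank with 333 and 319.5, and ZNF687, a zinc finger protein, directly below with 315 and 301. Like CRTC2, both of these genes lie on chromosome 1.

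The paralogs had TSS peaks that were about 1 order of magnitude lower. CRTC1 (ENSG00000105662.16, chr19:18683678-18782333, forward strand) reached 29.9 in replicate 1 and 27.0 in replicate 2. CRTC3 (ENSG00000140577.17, chr15:90529923-90645345, forward strand) reached 27.2 and 25.4. The values of CRTC1 and CRTC3 overlapped, whereas every CRTC2 value was above every value of both. The fold enrichment at CRTC2 was 10.3 times that of its strongest paralog in replicate 1 and 11.6 times in replicate 2, a mean of 10.97 ± 0.908 (SD, n = 2). For CRTC1, moreover, the best peak was not the one at the start of the full-length transcript. It lay in the first intron of the MANE transcript, 604 bp from an internal TSS at 18742910. The peak over the MANE TSS at 18683680 had only 11.7 and 10.2, or 50 and 45 stacked reads, which was the weakest 5′ peak among the 8 genes. CRTC3 had its best peak over the MANE TSS at 90529923, and 6 of its 17 annotated TSSs lay under a peak in both replicates.

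**Figure D2:**
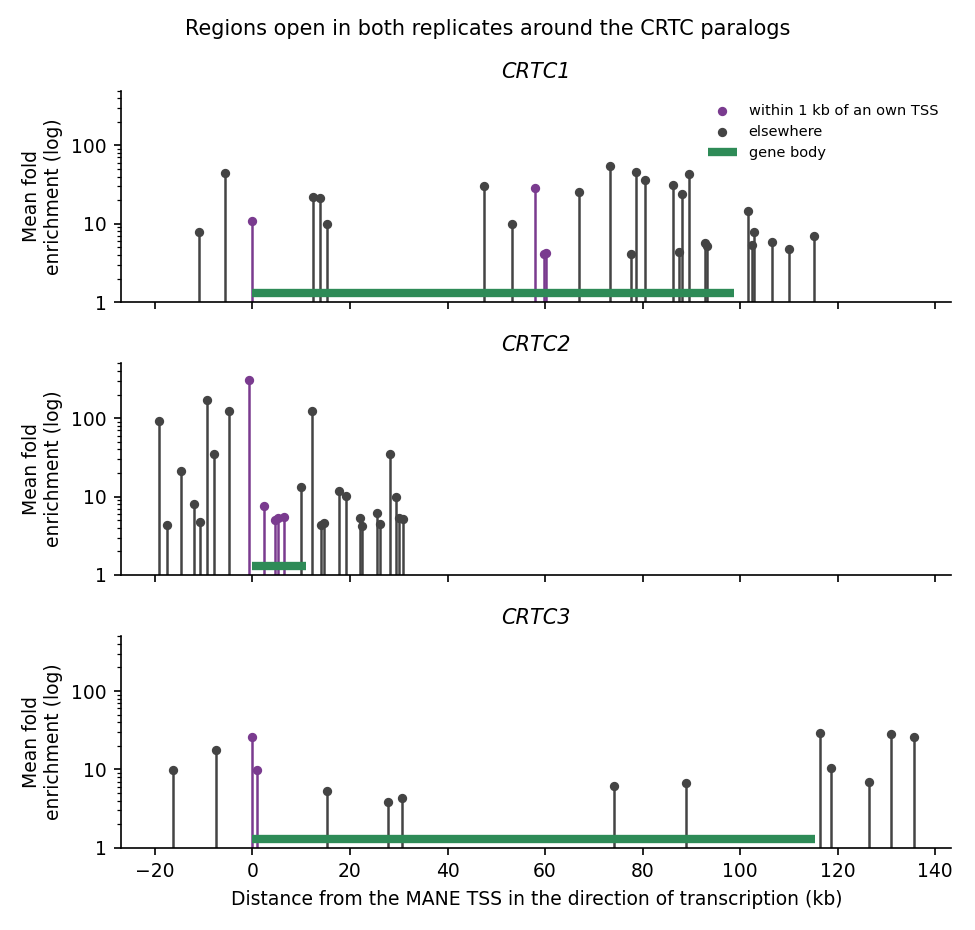
Mean fold enrichment of both replicates (log axis) of each region open in both, against distance in kb from the MANE TSS in the direction of transcription, for CRTC1, CRTC2 and CRTC3; purple marks regions within 1 kb of an own TSS, gray other regions and the green bar the gene body. CRTC1 has most of its tall regions inside the gene and 1 upstream. CRTC2 has them at its start and at promoters of other genes on either side, and CRTC3 has few regions within its body.

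CRTC2 lies in a stretch of chromosome 1 where neighboring promoters were also strongly open. Among protein-coding genes with a TSS peak, those within 2 Mb of CRTC2 had a median of 105 in replicate 1 (104 genes) and 111 in replicate 2 (106 genes). The median for the whole chromosome was 56.6 in both replicates. Genes without a TSS peak were left out of the local and chromosome medians. No other member had a local median above 69.3. CRTC2, which was chosen for its TSS peak, was the highest of its neighborhood in both replicates, at 2.94 and 2.83 times the local median. Its top place among these neighbors was therefore largely set by that choice. CRTC1 reached 0.625 and 0.540 times its local median and CRTC3 0.426 and 0.408 times. Divided by these local medians, CRTC2 exceeded its strongest paralog by 4.97 ± 0.376 times (SD, n = 2), so that the excess was smaller but kept its direction. The number of copies of this stretch in CAMA-1 was not analysed here, and the part of the neighborhood in the CRTC2 value was not tested.

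**Figure D3:**
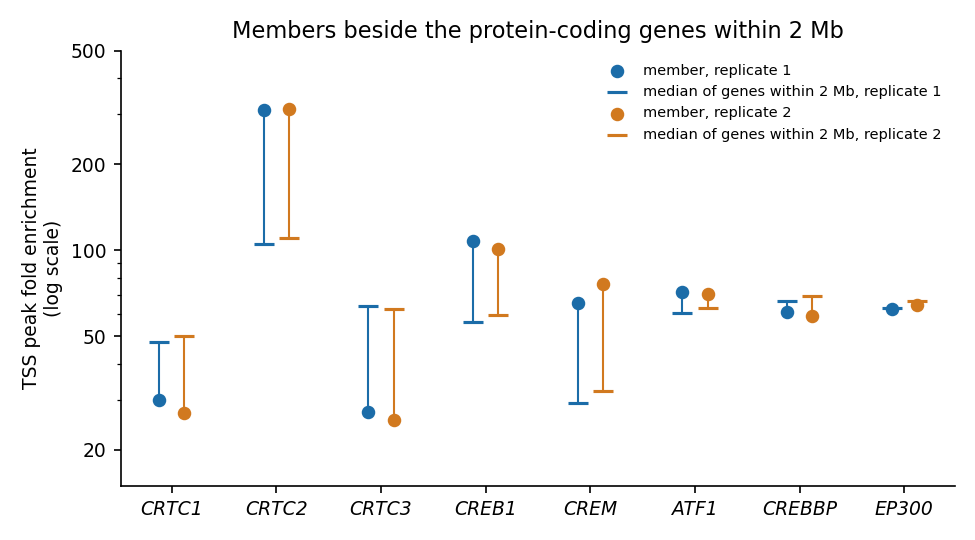
TSS peak fold enrichment (log axis) of each gene (points), replicate 1 in blue and replicate 2 in orange. Dashes mark the median of the other protein-coding genes within 2 Mb that had a TSS peak. CRTC2, CREB1, CREM and ATF1 lie above their local medians in both replicates, CRTC1, CRTC3 and CREBBP below, and EP300 close to its own.

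Among the DNA-binding factors, CREB1, the founding member of the family, had the strongest TSS peak. CREB1 (ENSG00000118260.15, chr2:207529737-207605988) reached 108 in replicate 1 and 101 in replicate 2, and its peak also covered the start of a lncRNA on the opposite strand (ENSG00000223725), 54 bp from a TSS of CREB1. It ranked 2 and 3 among its neighbors within 2 Mb. ATF1 (ENSG00000123268.9, chr12:50763710-50821162), which can pair with CREB1, had 71.3 and 70.5. All 5 annotated TSSs of ATF1 lay under this single peak, which was 2446 and 2584 bp wide. CREM (ENSG00000095794.21, chr10:35126791-35212958), which encodes both activators and repressors, among them ICER from an internal promoter, had 65.3 and 76.5. The values of ATF1 fell between those of CREM, so the order of these genes was within the replicate spread. CREB1 exceeded ATF1 by 1.52 and 1.43 times and CREM by 1.65 and 1.32 times.

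The peak at the 5′ end of CREM was shared. CUL2, which encodes a cullin scaffold of ubiquitin ligases, starts on the opposite strand with a TSS 11 bp from one of CREM, and the start of a lncRNA (ENSG00000230534) lies 28 bp from another. The accessibility at this bidirectional promoter cannot be divided between these genes. A second, weaker TSS region lay in intron 6 of the MANE transcript, at chr10:35195862-35196368, over annotated internal starts of CREM. It had 36.1 in replicate 1 and 36.7 in replicate 2, with heights of 156 and 165 stacked reads, and belonged to CREM alone. Of the 44 annotated TSSs of CREM, 29 lay under a peak in both replicates.

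The acetyltransferase genes had TSS peaks of similar strength. EP300 (ENSG00000100393.15, chr22:41092592-41180077, forward strand) had 62.4 in replicate 1 and 64.6 in replicate 2, from 270 and 291 stacked reads, and the peak also covered the start of the microRNA gene MIR1281. CREBBP (ENSG00000005339.15, chr16:3725054-3880713, reverse strand) had 60.7 and 58.8, from 263 and 265 stacked reads. The ratio of EP300 to CREBBP was 1.03 and 1.10, and the counting intervals of their heights overlapped, with 239 to 304 stacked reads for EP300 and 232 to 297 for CREBBP in replicate 1. As for CRTC1, the best peak of CREBBP was an internal one, over a protein-coding TSS at 3780867. The peak over its MANE TSS at 3880713 had 39.3 and 45.3, below both values of EP300. For the other 6 genes the best peak was the one at the 5′ end.

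Sequences upstream of annotated starts were taken from RefSeq (GRCh38.p14, from 250 bp before to 50 bp after each start), where 7 of the 8 genes had 16 entries between them. CRTC2 had no entry. The CRE core TGACG, on either strand, was present in 5 of these 16 entries, which belong to CREM, CRTC3 and CREBBP, and in 24.6% of all 35116 promoters. The entries of a gene overlap in part, so they are not independent. The full CRE occurred in 1.85% of all promoters and, among these 7 genes, only in entries of CREM. It stood beside the internal start in intron 6. The stretch chr10:35195720-35195869 (forward strand) is shown with the CRE in capitals because the called peak began only after it.

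CREM, internal start: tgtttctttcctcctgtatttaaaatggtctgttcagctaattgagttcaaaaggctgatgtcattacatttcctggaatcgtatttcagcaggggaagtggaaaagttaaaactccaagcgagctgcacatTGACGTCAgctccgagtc

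The CRE occupied chr10:35195852-35195859, and the peak began at 35195862 in replicate 1 and 35195870 in replicate 2. The motif thus lay just outside the called peak in both. Peak edges depend on processing settings that are not given, so whether the motif itself was open is uncertain. At the other CREM entry with the core, for a start at 35127227, matches lay 178 and 68 bp upstream, both under the 5′ peak. A match of letters is not evidence of binding, and its absence concerns this window alone. The whole open regions over the 5′ starts, longer than the entries, also held the core in CREB1 (4 matches), ATF1 (2), CRTC1 (1) and EP300 (1). The share of such TSS regions with the core over all genes was not computed.

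The upstream sequences of the paralogs CRTC1 and CRTC3 and of CREBBP and EP300 are set side by side. The 250 bases before the RefSeq start are given, at chr19:18683430-18683679 for CRTC1, chr15:90529673-90529922 for CRTC3, chr16:3880714-3880963 for CREBBP (reverse strand) and chr22:41092342-41092591 for EP300, with the CRE core TGACG and the GC box GGGCGG, a site of SP factors, in capitals on either strand.

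CRTC1: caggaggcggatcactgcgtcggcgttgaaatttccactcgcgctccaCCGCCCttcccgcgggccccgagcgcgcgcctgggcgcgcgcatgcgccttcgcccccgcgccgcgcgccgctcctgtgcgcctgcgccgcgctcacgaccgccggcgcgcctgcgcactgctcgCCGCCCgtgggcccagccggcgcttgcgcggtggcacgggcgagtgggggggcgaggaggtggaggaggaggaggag

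CRTC3: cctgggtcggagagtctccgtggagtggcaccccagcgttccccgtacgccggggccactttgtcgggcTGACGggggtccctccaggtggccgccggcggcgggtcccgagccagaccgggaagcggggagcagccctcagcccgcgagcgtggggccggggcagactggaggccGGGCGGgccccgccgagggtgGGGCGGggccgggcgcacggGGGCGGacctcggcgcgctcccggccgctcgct

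CREBBP: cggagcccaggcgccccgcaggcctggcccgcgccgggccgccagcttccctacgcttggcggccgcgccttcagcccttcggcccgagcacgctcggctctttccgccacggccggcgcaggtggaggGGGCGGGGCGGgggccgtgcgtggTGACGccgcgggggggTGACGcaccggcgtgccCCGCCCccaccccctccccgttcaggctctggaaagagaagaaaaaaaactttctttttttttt

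EP300: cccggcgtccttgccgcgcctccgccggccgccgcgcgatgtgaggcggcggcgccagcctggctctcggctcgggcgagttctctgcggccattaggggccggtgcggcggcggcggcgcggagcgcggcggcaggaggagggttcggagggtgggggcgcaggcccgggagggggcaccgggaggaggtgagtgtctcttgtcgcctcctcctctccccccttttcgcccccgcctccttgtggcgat

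GC boxes were present in 11 of the 16 entries, against 45.0% of all promoters. EP300 was the gene without one in its entry, although the whole open region over its TSS held 9. CRTC3 had 1 CRE core, 181 bp upstream of its start, and CREBBP had 2, at 97 and 81 bp. CRTC1 had none in this window. The GC content of the full entries was 75.3% for CRTC1, 80.7% for CRTC3, 70.3% for CREBBP and 75.3% for EP300, against a median of 58.7% over all promoters. The weakly open promoters of CRTC1 and CRTC3 were therefore GC-rich, whereas those of CRTC1 and EP300 had the same GC content and differed in fold enrichment, with 11.7 and 10.2 for CRTC1 and 62.4 and 64.6 for EP300. CRTC2 had no entry, but the whole open region over its TSS (3644 bp) had a GC content of 56.1%, with 4 CRE cores and 3 GC boxes. The open regions over the 5′ starts of CRTC1 (583 bp) and CRTC3 (1017 bp) had 70.8% and 72.6%. These regions differ in length, so their contents are not directly comparable. The part of base composition in the fold enrichments was not tested. The entry of CRTC1 held 50 CpG dinucleotides, that of CRTC3 43 and that of EP300 40.

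Beyond the promoters, peaks of the replicates that overlapped were merged, which gave 151 regions open in both replicates over the 8 genes. Of these, 29 lay at a TSS of the gene itself, 60 in introns, 2 in other exons, 18 upstream and 42 downstream, and 98 lay more than 1 kb from every annotated TSS of any gene. At the distance limits, the region nearest inside 1 kb of a TSS was in CREBBP at 900 bp (3.68 and 5.31), and the nearest outside was also in CREBBP at 1020 bp (5.75 and 3.76). At the limit of 20 kb from a gene body, both nearest regions were downstream of CRTC2, at 19716 bp inside (6.67 and 3.76) and 20090 bp outside (6.21 and 3.98).

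CRTC2 had the densest landscape of the family. Its gene and flanks held 53.0 open regions per 100 kb, a higher density than at 99.7% of protein-coding genes, whose median was 11.6. The CRTC2 span was 50.9 kb long, against 139 kb for CRTC1 and 155 kb for CRTC3. The flanks of 20 kb on either side therefore form a larger part of the CRTC2 span. Peaks covered 56.5% of this span in replicate 1 and 53.1% in replicate 2, against 12.3% and 12.9% for CRTC1 and 3.86% and 3.72% for CRTC3. Of its 27 regions, 5 lay at its own TSSs, 16 others within 1 kb of a TSS of another gene and only 6 away from every TSS. The strong regions near CRTC2 were promoters of other genes. Upstream, the region at the starts of CREB3L4, a CREB-like factor of the endoplasmic reticulum membrane, and SLC39A1, a zinc transporter, had 175 and 166. Another region at a start of SLC39A1 had 125 and 121, and the promoter of JTB, a transmembrane protein, had 90.7 and 93.3. Downstream, the promoter of DENND4B, an exchange factor for Rab GTPases, had 123 and 121. The strongest region away from any TSS, at chr1:153930072-153930881, had 33.4 and 36.3, which was 0.112 times the CRTC2 TSS peak.

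CRTC1 showed the reverse arrangement. It had 28 open regions, 16 of them intronic, and its strongest region lay in intron 6 of the MANE transcript at chr19:18756631-18757375, with 46.2 in replicate 1 and 61.3 in replicate 2. Others of similar strength lay in intron 8 (42.6 and 49.1), in intron 11 (42.8 and 43.8) and 5177 bp upstream of the first TSS (46.9 and 42.9). Each of these exceeded the best TSS peak of CRTC1 in both replicates, and the region in intron 6 was 1.89 times as strong by the mean. Over protein-coding genes, the strongest region away from every TSS had a median of 32.7 by the mean of both replicates. CRTC1 (53.8) was above 71.2% of genes on this measure, CRTC2 (34.8) above 52.7% and CRTC3 (29.1) above 45.1%. CRTC3 had 14 open regions over a span of 155 kb, 9.01 per 100 kb. None of its 5 intronic regions exceeded 7.74, and its strongest region away from a TSS lay downstream of the gene, at chr15:90645822-90646559, with 31.1 and 27.2.

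CREBBP had the strongest distal region of the 8 genes. It lay in intron 11 at chr16:3776191-3776966, 1206 bp from the nearest annotated TSS, and had 108 in replicate 1 and 109.7 in replicate 2 (469 and 495 stacked reads). This was 1.82 times the best TSS peak of CREBBP and similar to the promoter of CREB1 (108 and 101). CREBBP also had the most open regions, 36, of which 22 were intronic and 13 of those lay in intron 1. Its span was the longest of the 8, at 196 kb. Per 100 kb it had 18.4 regions, more than 69.7% of protein-coding genes but fewer than CRTC1 (20.2) and CRTC2 (53.0). EP300, the paralog of CREBBP, had 12 regions, or 9.41 per 100 kb. Its strongest region away from a TSS, in intron 1, reached only 12.4 and 9.07, or 0.169 times its TSS peak.

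Among the DNA-binding factors, ATF1 had a strong region in intron 2 at chr12:50786641-50787365, with 79.6 and 80.5, above its promoter in both replicates. For CREM, a region in intron 1 at chr10:35130482-35131018 had 38.7 and 50.9. CREB1 had 8 open regions, or 6.88 per 100 kb. Its strongest distal one, in intron 1, had 14.3 and 14.4, or 0.137 times its promoter. In 4 of the 8 genes (CRTC1, CRTC3, ATF1 and CREBBP), the strongest region away from every TSS exceeded the best TSS peak by the mean of both replicates. The same held for 39.8% of the protein-coding genes whose TSS was open in both, so the count was near the background.

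**Figure D4:**
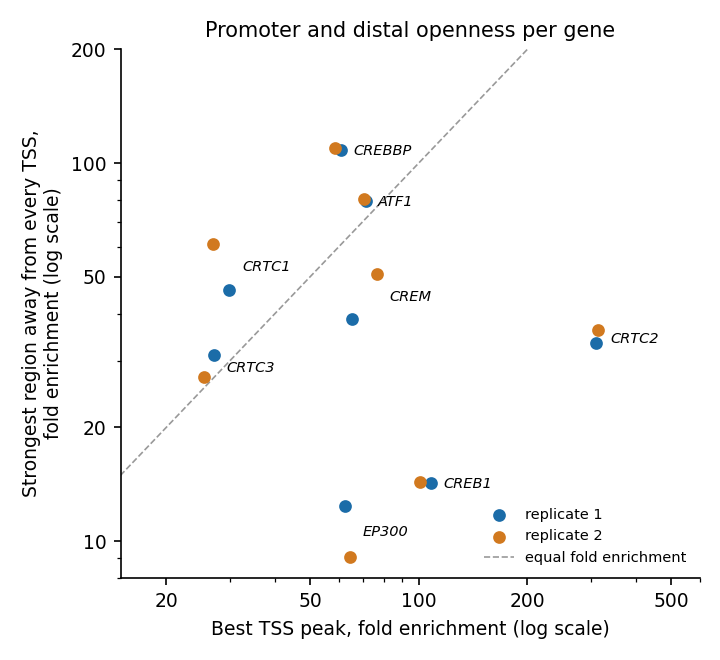
Fold enrichment of the strongest region away from every TSS against that of the best TSS peak for each gene (both axes log), replicate 1 in blue and replicate 2 in orange; the dashed line marks equal values. CREBBP, ATF1, CRTC1 and CRTC3 lie above the line in both replicates, and CRTC2, CREB1 and EP300 far below it.

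The letters within the strongest intronic regions differed from gene to gene. Stretches of 150 bases of hg38 (forward strand) are shown for CRTC1 intron 6 (chr19:18756848-18756997, around the forkhead motif TGTTTAC), ATF1 intron 2 (chr12:50787002-50787151, around the AP-1 motif TGANTCA and with the GATA motif AGATAA at its end) and the middle of CREBBP intron 11 (chr16:3776504-3776653), where none of the 10 motifs searched was found in the whole region. Capitals mark these matches. Outside the stretches shown, the CRTC1 region also held a GC box and a CCAAT box and the ATF1 region a TATA box.

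CRTC1 intron 6: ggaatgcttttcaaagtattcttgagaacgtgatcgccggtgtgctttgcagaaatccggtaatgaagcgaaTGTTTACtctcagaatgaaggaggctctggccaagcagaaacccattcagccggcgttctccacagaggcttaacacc

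ATF1 intron 2: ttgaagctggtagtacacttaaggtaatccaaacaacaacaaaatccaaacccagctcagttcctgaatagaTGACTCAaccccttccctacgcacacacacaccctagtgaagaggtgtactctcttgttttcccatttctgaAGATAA

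CREBBP intron 11: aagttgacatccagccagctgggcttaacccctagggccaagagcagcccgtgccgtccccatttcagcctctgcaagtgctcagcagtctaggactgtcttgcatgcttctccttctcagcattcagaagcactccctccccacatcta

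In the 300 bp around the midpoints of the 98 regions away from every TSS, the CRE core was found in 14 (14.3%), against 10.3% of the 172293 such regions in the genome, and the full CRE in none, against 0.216%. The AP-1 motif was found in 12 (12.2%, against 14.6%), the forkhead motif in 8 (8.16%, against 8.12%) and the GATA motif AGATAA in 14 (14.3%, against 15.7%). The E-box was found in 6 (6.12%, against 4.48%), the GC box in 9 (9.18%, against 7.16%) and the ETS motif in 2 (2.04%, against 1.33%). The CCAAT box was found in 28 (28.6%, against 34.0%) and the TATA box in 7 (7.14%, against 14.5%), the motif whose shares lay farthest apart. None of these differences was tested.

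The wider pathway was open at nearly all of its genes. Of 90 genes in 5 lists, 84 had a TSS peak in both replicates (93.3%), against 79.3% of all protein-coding genes. The lists were chosen with earlier results of these data known, so this difference is a description without a test. The median fold enrichment of those 84 genes was 53.7 in replicate 1 and 57.7 in replicate 2, close to the 51.8 and 53.3 of all genes open in both replicates.

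All 16 other CREB and ATF factors were open. The highest were CREB3L4 (175 and 166), which shares the neighborhood of CRTC2, and ATF2, a stress-activated factor that pairs with JUN (172 and 162). Of 25 genes of cAMP and PKA signaling, 23 were open, led by PRKACA, the main catalytic subunit of protein kinase A (126 and 121), and PDE4C, a phosphodiesterase that degrades cAMP (121 and 111). No TSS peak was listed for ADCY7, an adenylyl cyclase, or PRKACG, a retrotransposed catalytic subunit.

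Of 18 regulators of the CRTC proteins, 16 were open. YWHAZ, a 14-3-3 protein, had 114 and 137, and COP1, a ubiquitin ligase that acts on CRTC2, had 101 and 104. No TSS peak was listed for PPP3R2, a calcineurin subunit, or for SIK1, a salt-inducible kinase. GENCODE marks a second copy of SIK1 in the hg38 assembly as an artifactual duplication, to which its reads may also align, so its absence from the lists is uncertain. All 10 acetyltransferase coactivators and partners were open, led by NCOA2, a nuclear receptor coactivator (138 and 132), and CITED2, which binds CBP and p300 (77.1 and 77.2).

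Of 21 known CREB target genes, 19 were open. The highest were the early response genes NR4A1 (195 and 173), which encodes an orphan nuclear receptor, and DUSP1 (153 and 169.6), which encodes a MAP kinase phosphatase. No TSS peak was listed for G6PC1, the glucose-6-phosphatase of liver, and SST, which encodes somatostatin, had a weak one in replicate 1 alone (5.06).

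**Figure D5:**
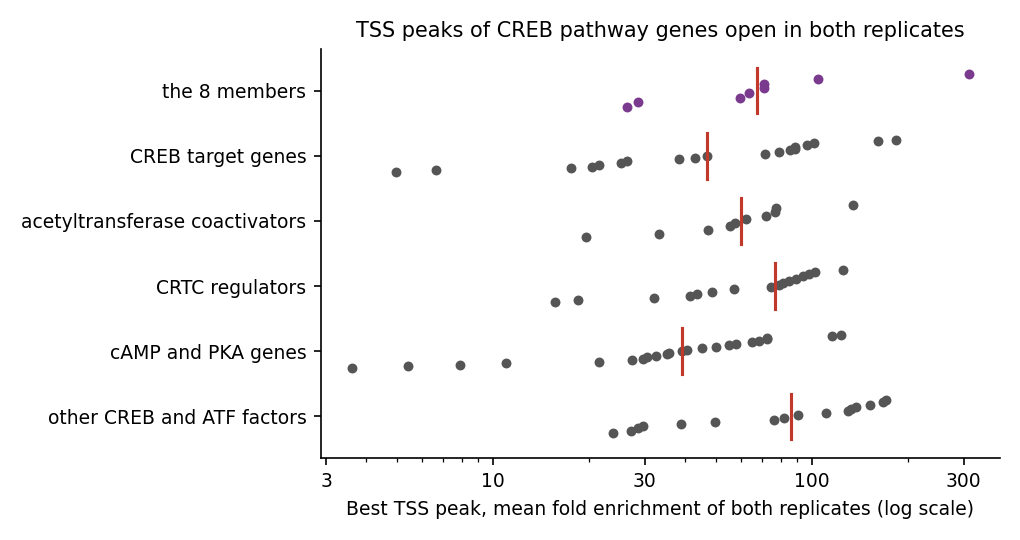
Best TSS peak of each gene open in both replicates, as the mean fold enrichment of both (log axis), for the 5 pathway lists and the 8 genes; each point is a gene and each red line a median. CRTC2 is the point farthest to the right, and CRTC1 and CRTC3 are the lowest of the 8 genes.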

How the data were processed

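Open chromatin was profiled by ATAC-seq in 2 biological replicates of CAMA-1 cells. Per the submitters' processing notes, the authors used Trim Galore 0.6.5, Bowtie2 2.3.5.1, MACS2 2.2.6 and the hg38 genome. MACS2 settings, the handling of duplicates, any shift of reads for the Tn5 cut and any excluded regions are not given in the sources used here, and each of these could change peak widths and values. The authors deposited 1 peak list per replicate, with replicates not pooled. The deposited columns hold a score (not used further), fold enrichment as a ratio over the background, and the −log10 p-value and −log10 q-value. The total reads per library are not in these lists, so depth was read from the peaks. Deposited fold enrichments were whole multiples of 0.230 in replicate 1 and 0.221 in replicate 2 for 100% of peaks, within 0.05 reads, which gave heights in stacked reads and a single background of 3.35 and 3.52 reads, so the values are not scaled to the local surroundings of a peak. Peaks had heights of at least 11 stacked reads.

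Coordinates are 1-based. Genes, TSSs and MANE transcripts came from GENCODE release 44. Each gene was given its best TSS peak within 1 kb of any annotated TSS, and peaks that shared at least 1 bp between replicates were merged. Motifs were searched on both strands as exact letters: CRE TGACGTCA, CRE core TGACG, GC box GGGCGG, ETS CCGGAAG, E-box CACGTG, the CCAAT box, the TATA box (TATAAA), AP-1 (TGANTCA), the forkhead motif (TGTTTAC) and the GATA motif (AGATAA). The CRE core is part of the full CRE. Python 3.11.15, numpy 2.4.6, scipy 1.17.1, pandas 2.3.3 and matplotlib 3.10.9 were used, and overlaps, heights and motif searches were tested on simulated data.

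With 1 condition there was no contrast between groups and no p-value was computed. The members and gene lists were chosen with earlier results of these data known. The lists were luminal epithelial markers, other cell type markers, other CREB and ATF factors, cAMP and PKA genes, CRTC regulators, acetyltransferase coactivators and partners, and CREB target genes. A further marker of another lineage is not reported here. Named were all 8 members, genes sharing a member's TSS or TSS peak, the genes directly above and below CRTC2 by mean rank, and for each pathway list the 2 genes with the highest TSS peaks and, where 5 or fewer, those not open in both replicates. The other genes named around CRTC2 (SLC39A1, JTB and DENND4B) were added after their values were seen, as the genes whose promoters held its strongest flanking regions. Other thresholds, distances, scalings, windows and each replicate alone were tried as alternatives.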

Additional observations from a re-analysis of the deposited data

How the results depend on the processing

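The 8 members kept a TSS peak in both replicates under every alternative tried (a −log10 q of at least 10, distances of 100 bp and 3 kb, the 5′ TSS alone, and each replicate alone). The ratio of CRTC2 to its strongest paralog was 21.0 on the −log10 q scale, 9.54 after division by the chromosome median and 4.97 after division by the median within 2 Mb, and from 10.3 to 11.6 in single replicates. It was 11.1 on heights and 11.9 with the 5′ TSS alone or within 100 bp, where CRTC3 replaced CRTC1 as the strongest paralog. The 151 regions open in both replicates became 91 within gene bodies alone, and ranged from 107 (a −log10 q of at least 10) to 217 (50 kb either side) under the others. Single replicates held 191 and 193 peaks, which were not merged and so are not the same unit. The CRE core was in promoter entries of 3 genes, of 5 with a window from 500 bp before to 100 bp after the start (36.1% of all promoters), and the full CRE in those of 1. Of the pathway genes, 81 to 85 were open instead of 84. With the 5′ TSS alone, the TSS peak of CRTC1 moved from 28.4 to 10.95 and that of CREBBP from 59.8 to 42.3.

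No paired analysis was possible because no group of samples could be set against another. With 2 replicates an SD rests on 1 degree of freedom, and regions near the height limit of 11 stacked reads were often listed in 1 replicate alone.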
